A study of Mus musculus with 2 samples.

Results

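Coagulation and fibrinolysis factors, most of them plasma proteins made by the liver, were examined in liver RNA of calorie-restricted (CR) and ad libitum-fed (AL) male mice of the inbred strain C57BL/6J. The members were 36 named genes, each found by probe sets that the platform annotation assigns to its symbol alone. Of these, 35 had such a probe set, 48 probe sets in all, among 18193 genes on the array, and Cpb2 had none. An intensity of 7.38, the median of all values, was taken as the lower limit of measurement, and 31 members reached it in at least 1 pool, among 12644 measured genes. The tissue factor gene F3, the factor XIII A chain gene F13a1, and the plasminogen activator genes Plat and Plau stayed below it in both pools.

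The CR mice received a diet restricted by 20% for 1 week and by 40% for the next 11 weeks, whereas the AL mice had unrestricted food for the same 12 weeks. All were wild type, were housed singly, entered the diets at 8 weeks of age and are labelled as 5 months old. Equal amounts of liver RNA from 3 mice were pooled per diet and each pool was hybridised to 1 Affymetrix array, so the data hold 1 value per gene and diet and no spread between mice. No test was possible, each difference below is log2 CR intensity minus log2 AL intensity, and it describes these pools.

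Blood clots through a cascade of proteases. Tissue factor with factor VII, or the contact system of factor XII, plasma kallikrein and kininogen, leads to factor X, which with factor V turns prothrombin into thrombin, and thrombin cuts fibrinogen into fibrin. Antithrombin, heparin cofactor II, tissue factor pathway inhibitor and the protein C system hold the cascade back, and plasmin later dissolves the clot. Hepatocytes secrete most of these proteins, while factor VIII, von Willebrand factor, thrombomodulin and tissue factor pathway inhibitor come largely from endothelial cells.

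The typical measured gene differed by -0.02, and the central 95% of measured genes lay between -1.04 and 0.89. The arrays had median intensities of 7.42 in CR and 7.35 in AL. Hepatocyte markers, the check of the tissue label, were measured in both pools, among them albumin (Alb) at 11794 in CR and 12765 in AL. The beta-actin and Gapdh control probe sets were lower in CR, with differences of -0.67 to -1.61, and their 3' to 5' ratios were 53.2 to 89.7 in CR and 46.9 to 83.5 in AL, a strong 3' bias on both arrays. Of the 11 hepatocyte markers with a measured probe set, 9 lay below 0 (81.8%), and the list median stood at -0.11. The 1 that passed 2-fold downward (9.09%) was Tdo2 on its brightest probe set, while its other probe sets stood at 0.004 and -0.38. Probe sets of other markers differed too: those of Ttr ran from -1.60 to -0.07, the brightest, and those of Apob from -0.94, the brightest, to 0.20. In bulk tissue, fewer cells of a type and less RNA per cell cannot be told apart.

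Coagulation and fibrinolysis genes were more often lower than higher in the CR pool, and 3 stood out by size: the fibrinogen chains Fgg and Fgb and the C1 inhibitor gene Serping1. Of 31 measured members, 3 (9.68%) were at least 2-fold lower, against 2.79% of all measured genes, and 0 were at least 2-fold higher, against 1.8%. At 1.5-fold, 8 members were lower, against 8.86% of all genes, and 1 was higher, against 6.37%, with genes below the limit in 1 pool set at the limit. Taken at its value below the limit, Ggcx brought the count to 9, against 9.49% lower and 6.76% higher. In all, 23 of the 31 (74.2%) lay below 0, as did 52.1% of measured genes and 81.8% of the 11 measured hepatocyte markers. The members' median was -0.33, and that of the hepatocyte markers -0.11. The fibrinogen chains carried much of the 2-fold count: among the other 28 measured members 1 (3.57%) was at least 2-fold lower, a share near the 2.79% of all genes, and 20 lay below 0, with a median of -0.28. All directions are relative to the typical gene. Scaling on the hybridisation spikes moved the median of all measured genes to -1.04, so most measured genes were then at least 2-fold lower. All 31 members then lay below 0 and 23 were at least 2-fold lower, which is not particular to the members. Scaling on the cre spikes alone gave a median of -0.40, with 30 members below 0 and 8 at least 2-fold lower. The share of all genes past 2-fold on the cre spikes is not given here. Ggcx is counted under both scalings at a value below the limit.

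**Figure D1:**
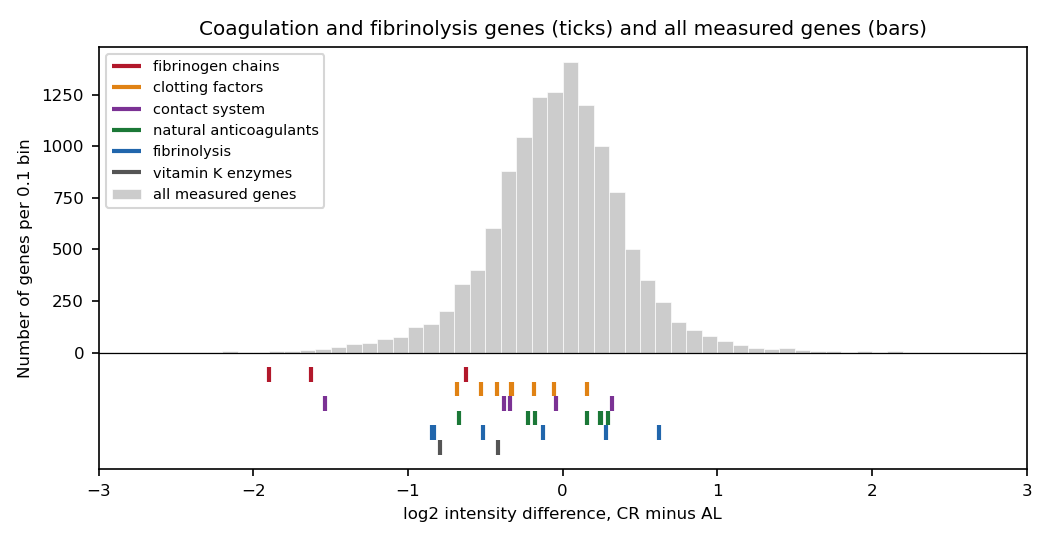
Number of measured genes (bars) by log2 intensity difference, CR minus AL, in bins of 0.1, with each measured coagulation or fibrinolysis gene as a tick under the bars, coloured by class; 26 genes beyond -3 or 3 are not drawn. Fgg, Fgb and Serping1 lie left of -1.04, the lower end of the central 95% of genes, and the remaining ticks lie within the bulk of the bars.

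Brightness gave a similar picture. Among 2850 genes with a mean intensity of at least 100, 4.25% were at least 2-fold lower, 3.54% at least 2-fold higher and 48.9% below 0. The 22 members of that brightness included 3 at least 2-fold lower (13.6%), 0 higher and 18 below 0 (81.8%). The 9 dimmer measured members had a median of -0.23, or -0.14 with Ggcx at its bound, with 5 below 0 and 4 above. This limit of brightness was chosen after the values were seen.

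**Figure D2:**
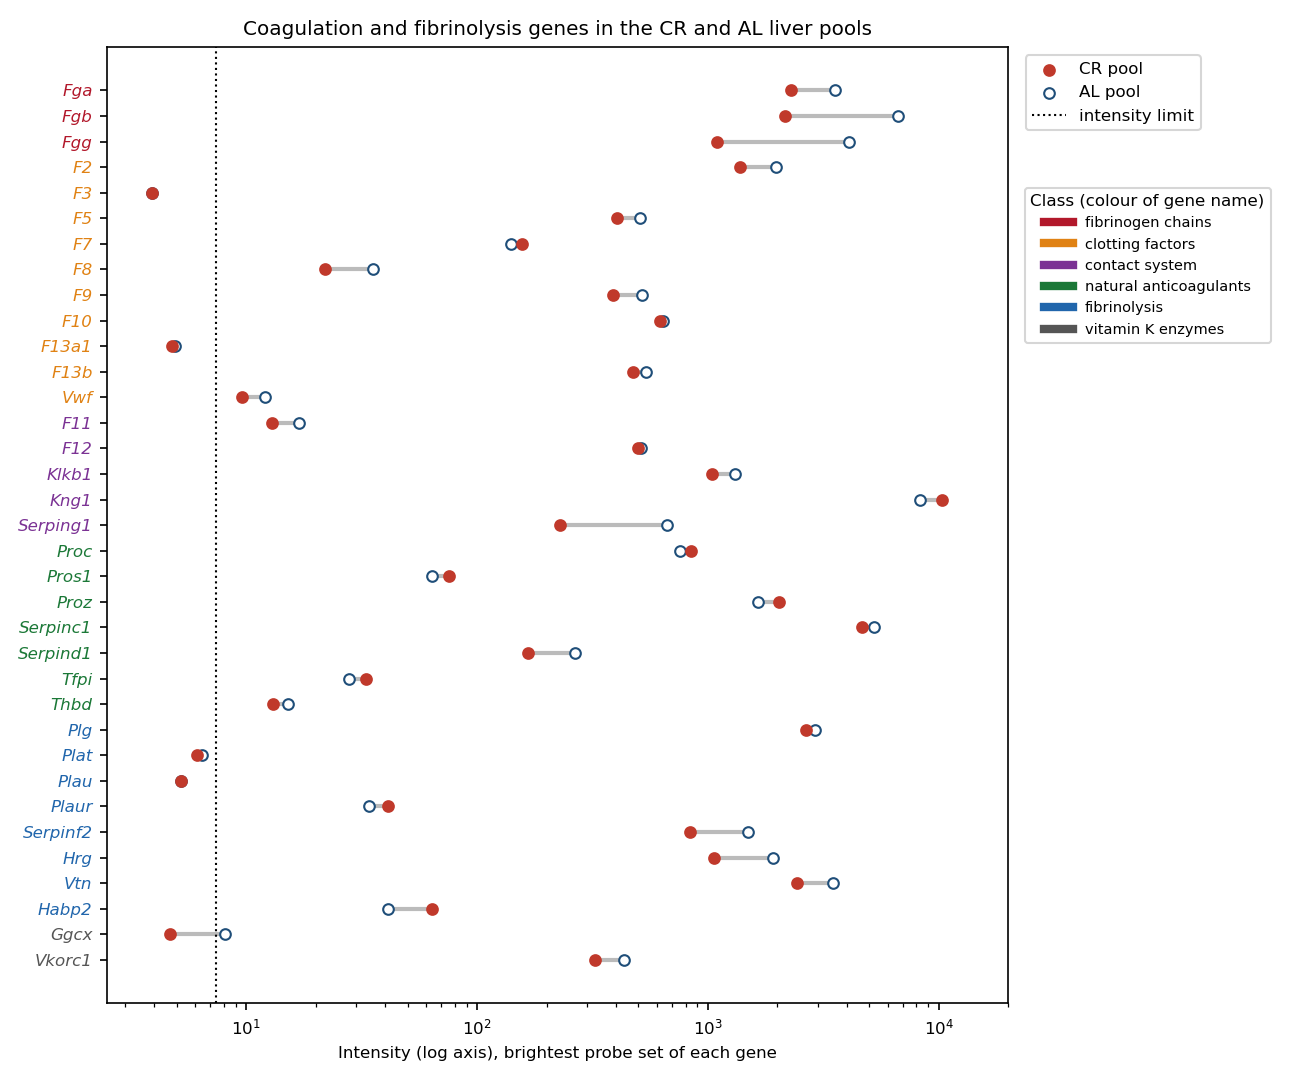
Intensity (log axis) of the brightest probe set of the 35 coagulation and fibrinolysis genes with a probe set, in the CR pool (filled) and the AL pool (open), with gene names coloured by class and the limit of 7.38 as a dotted line. The widest gaps, with CR to the left, belong to Fgg, Fgb and Serping1, and levels of different genes cannot be compared because each probe set responds differently.

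Fibrinogen, the soluble precursor of fibrin, is built from alpha, beta and gamma chains encoded by Fga, Fgb and Fgg. These genes lie next to each other on mouse chromosome 3, with no other protein-coding gene between them in the RefSeq annotation of GRCm38.p6. In human and rodent hepatocytes the chains are known as acute phase genes that interleukin 6 induces through STAT3. The 250 bases before the annotated start of each gene are shown because the chains differed in size of difference while sharing a locus, and the promoter of Proz, the vitamin K-dependent protein Z gene, is shown as one of a member that was not lower. Capitals mark letters found on either strand of CTGGGAA (core of the interleukin 6 response element), GTTAAT (part of the HNF1 site) or TTGCNNAA (C/EBP-like). The sequences are from RefSeq, build GRCm38.p6, 5′ to 3′ on the gene's strand.
Fgg, chr3:83007474-83007723, plus strand: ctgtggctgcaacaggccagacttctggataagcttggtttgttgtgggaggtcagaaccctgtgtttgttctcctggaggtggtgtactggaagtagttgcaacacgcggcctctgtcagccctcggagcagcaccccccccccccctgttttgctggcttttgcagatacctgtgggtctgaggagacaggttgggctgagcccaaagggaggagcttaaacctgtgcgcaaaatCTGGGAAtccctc
Fgb, chr3:83049864-83050113, minus strand: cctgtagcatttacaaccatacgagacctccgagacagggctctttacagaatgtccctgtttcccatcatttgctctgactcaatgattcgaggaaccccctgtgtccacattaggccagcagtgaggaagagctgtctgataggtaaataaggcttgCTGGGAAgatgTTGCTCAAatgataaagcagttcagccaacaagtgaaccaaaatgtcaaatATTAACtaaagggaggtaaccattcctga
Fga, chr3:83025903-83026152, plus strand: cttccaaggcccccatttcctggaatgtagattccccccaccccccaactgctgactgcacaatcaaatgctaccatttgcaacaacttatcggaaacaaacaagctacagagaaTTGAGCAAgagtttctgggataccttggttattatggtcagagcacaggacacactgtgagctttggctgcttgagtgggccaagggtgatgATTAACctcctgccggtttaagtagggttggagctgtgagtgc
Proz, chr8:13060658-13060907, plus strand: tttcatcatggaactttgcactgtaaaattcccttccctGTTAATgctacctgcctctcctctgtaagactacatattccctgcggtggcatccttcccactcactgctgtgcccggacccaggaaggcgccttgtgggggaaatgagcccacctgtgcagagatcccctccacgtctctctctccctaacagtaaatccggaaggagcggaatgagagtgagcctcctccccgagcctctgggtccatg

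All chains were lower in the CR pool, and by unequal amounts. Fgg, the gamma chain, had an intensity of 1099 in CR and 4099 in AL, a difference of -1.90 or 3.73-fold lower in CR. Fgb, the beta chain, had 2155 in CR and 6666 in AL, a difference of -1.63 or 3.09-fold lower. Fga, the alpha chain, had 2298 in CR and 3541 in AL, a difference of -0.62 or 1.54-fold lower. Of all measured genes, 0.388% stood lower than Fgg, 0.601% lower than Fgb and 8.3% lower than Fga, so the alpha chain lay inside the central 95% and the other chains outside it. Each chain rested on 1 probe set, so no other probe set of the gene could be set beside it.

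The chains also differed in the letters printed above. Fgg holds CTGGGAA 13 to 7 bases before its start, and Fgb holds it 91 to 85 bases before. The Fga and Proz windows have no full match. Both hold near matches, such as CTGGGAT in Fga and, on the opposite strand, GTGGGAA in Proz. Near matches were not counted over all promoters, so they do not set these windows apart. Both Fga and Fgb hold GTTAAT on the opposite strand, 43 to 38 and 29 to 24 bases before the start, and a TTGCNNAA match, 135 to 128 and 80 to 73 bases before, and no matches overlap in these windows. The 28 members with a RefSeq promoter included 4 with CTGGGAA, namely Fgg, Fgb, F9 and Tfpi, against 9.1% of 32851 promoters of the same length. Members were counted as genes, with a match in any of their promoters, 30 in all. The percentages are shares of single promoters, so the measures differ slightly. GTTAAT was found in 6 of the 28 and 6.43% of all promoters, and TTGCNNAA in 9 and 9.56%. The members with GTTAAT were F13b, Fga, Fgb, Habp2, Proz and Vtn, of which Habp2 and Proz were higher in CR. Those with TTGCNNAA were F11, F9, Fga, Fgb, Ggcx, Habp2, Hrg, Klkb1 and Plaur, of which Habp2 and Plaur were higher in CR. TATAAA was found in 3 of the 28 and 12.4% of all promoters, and CCAAT in 6 and 33.8%, and neither occurs in the windows printed above. The CTGGGAA matches thus sit in members with differences of -1.90, -1.63, -0.42 and 0.24. No promoter was available for Serping1, Proc, Kng1, Plg, Plat, Plau, Vwf and Thbd, so these members were not searched. These matches are a description of letters, and no binding was measured.

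The clotting factor genes mostly lay slightly below 0, none of them by 2-fold. Of 8 measured, 7 were below 0 and 1 above, with a median of -0.33. Prothrombin (F2), the precursor of thrombin, had 1373 in CR and 1981 in AL, a difference of -0.53. F9, the protease factor IX that activates factor X, had 387 in CR and 519 in AL, a difference of -0.42. These values place prothrombin and factor IX below the typical gene but within the central 95% of genes.

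F5, the cofactor of factor X, had 404 in CR and 509 in AL on its brighter probe set, a difference of -0.33, and its other probe set stood at -0.91. F13b, the carrier chain of the fibrin-crosslinking factor XIII, had 474 in CR and 539 in AL, a difference of -0.19. F7, which starts the tissue factor pathway, had 157 in CR and 140 in AL and was the 1 clotting factor above 0, at 0.16. The factor X gene F10 had 619 in CR and 642 in AL, a difference of -0.05, while its other probe sets stood at 0.08 and 0.76, so the probe sets of this gene gave no single direction.

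Factor VIII and von Willebrand factor, its carrier in plasma, are made by endothelial cells, and platelets also carry von Willebrand factor. F8 had 22.03 in CR and 35.4 in AL, a difference of -0.69, the lowest of the clotting factors. Vwf was dim, with 9.56 in CR and 12.0 in AL, a difference of -0.33. Beside them, 11 of 13 endothelial markers were measured, 6 of them below 0 and 5 above, from -0.50 to 0.40 with a median of -0.15. Their summed intensity was 614 in CR and 668 in AL, and Pecam1 and Emcn lay below the limit in both pools. Of the 9 platelet and megakaryocyte markers 6 were measured, with differences between -0.30 and 0.08 and summed intensities of 139 in CR and 149 in AL. The part of cell content in the values of F8 and Vwf was not tested.

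**Figure D3:**
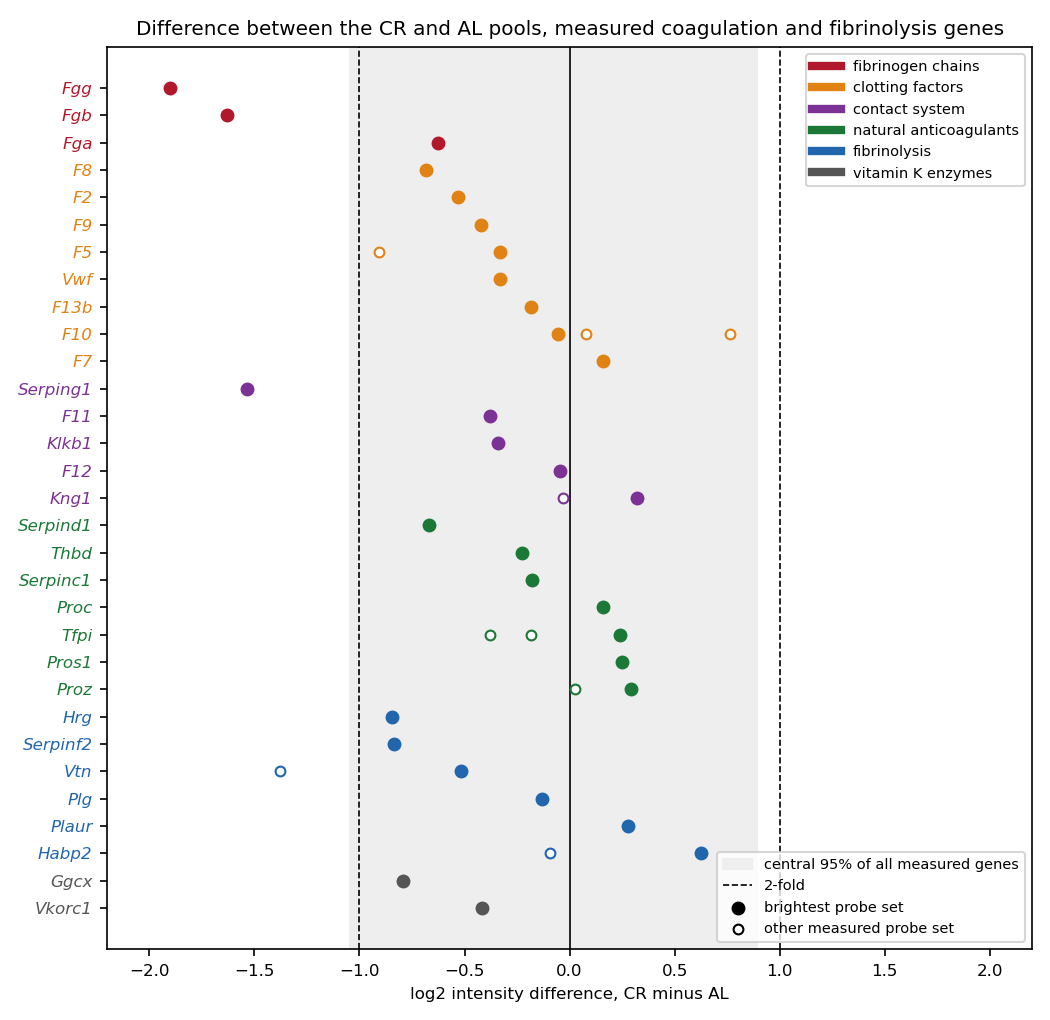
log2 intensity difference, CR minus AL, of the 31 measured genes by class, with the brightest probe set filled and other measured probe sets open; dashed lines mark 2-fold and the grey band the central 95% of all measured genes. Fgg, Fgb and Serping1 lie beyond 2-fold, a second Vtn probe set does so as well, and the Ggcx point is not a measured size because that gene lay below the limit in CR.

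In the contact system the inhibitor was lower and the proteases differed little. Serping1, the C1 inhibitor that blocks factor XII, plasma kallikrein and the complement proteases of the classical pathway, had 229.8 in CR and 666 in AL, a difference of -1.53 or 2.90-fold lower in CR, and 0.704% of measured genes stood lower. F12, the protease that starts the contact pathway, had 497 in CR and 513 in AL, a difference of -0.05. Klkb1, plasma prekallikrein, had 1037 in CR and 1316 in AL, a difference of -0.34. F11, a dim signal for the protease that activates factor IX, had 12.96 in CR and 16.9 in AL, a difference of -0.38.

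Kng1, the kininogen from which kallikrein releases bradykinin, was the contact gene above 0. It had 10330.1 in CR and 8280.4 in AL, a difference of 0.32, and its other probe set stood at -0.03. Of the 5 contact genes 4 were below 0 and the median was -0.34. Serping1 rested on 1 probe set. Besides hepatocytes, macrophages can express it, and 9 of 10 measured Kupffer cell and macrophage markers lay below 0, with a median of -0.54, or -0.50 with Timd4, which was below the limit in CR, at its bound. Among those above the limit in both pools the lowest was Clec4f at -0.69 and the highest C1qb at 0.05, on the brightest probe sets. Other C1qb probe sets stood at 0.12 and -1.25. These macrophage markers had summed intensities of 2471 in CR and 2776 in AL. Their part in the Serping1 value was not tested.

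Natural anticoagulants were on both sides of 0. Of 7 genes, 4 were above 0 and 3 below, none reached 2-fold, and the median was 0.16. The protein C system, which inactivates the cofactors V and VIII, lay slightly above 0 apart from its endothelial receptor for thrombin. Proc, protein C itself, had 841 in CR and 754 in AL, a difference of 0.16. Pros1, its cofactor protein S, had 75.4 in CR and 63.5 in AL, a difference of 0.25. Thbd, the endothelial thrombomodulin, had 13.01 in CR and 15.2 in AL, a difference of -0.23.

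Proz, a cofactor for the inhibition of factor X, had 2026 in CR and 1652 in AL, a difference of 0.29, with another probe set at 0.03. The other inhibitors of clotting proteases were less alike. Serpinc1, antithrombin, had 4635 in CR and 5252 in AL, a difference of -0.18. Serpind1, heparin cofactor II, had 166 in CR and 264.5 in AL, a difference of -0.67, the lowest of this class. Tfpi, the tissue factor pathway inhibitor, had 33.0 in CR and 27.9 in AL, a difference of 0.24, while its other measured probe sets stood at -0.18 and -0.38. The class median depends on Tfpi: it was -0.18 when probe sets of the _x_at, _s_at and _a_at types were left out, and -0.10 when the probe sets of each gene were averaged, so its sign is not settled.

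Fibrinolysis genes also lay on both sides of 0, and those of its inhibitors and binding proteins were the lower ones. Plg, plasminogen, the precursor of plasmin, had 2659 in CR and 2909 in AL, a difference of -0.13. Serpinf2, antiplasmin, the main inhibitor of plasmin, had 834.5 in CR and 1488 in AL, a difference of -0.83 or 1.78-fold lower. Hrg, the histidine-rich glycoprotein that binds plasminogen and heparin, had 1065 in CR and 1915 in AL, a difference of -0.85 or 1.80-fold lower. Of measured genes, 4.44% stood lower than Serpinf2 and 4.33% lower than Hrg, so both lay near the low end of the central 95%.

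Vtn, vitronectin, the plasma protein that stabilises plasminogen activator inhibitor, had 2440.3 in CR and 3488 in AL, a difference of -0.52, and its other probe set stood at -1.38, with 607 in CR and 1578 in AL. Both Vtn probe sets were thus lower, and only the dimmer one passed 2-fold. Plaur, the urokinase receptor of leukocytes, had 41.2 in CR and 34.0 in AL, a difference of 0.28. Habp2, a protease that can activate factor VII and prourokinase, had 63.7 in CR and 41.3 in AL, a difference of 0.63, the highest of all members, but its other probe set stood at -0.10. Of 6 measured genes of the class 4 were below 0, with a median of -0.32. That median was -0.13 without _x_at, _s_at and _a_at probe sets, -0.10 with no intensity limit and -0.48 with probe sets averaged.

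Vitamin K enzymes were measured in part. Ggcx, the carboxylase that makes Gla residues in vitamin K-dependent factors, was below the limit in CR, at 4.69, and just above it in AL, at 8.12, so it was at least 1.10-fold lower in CR. Vkorc1, the epoxide reductase that recycles vitamin K and is the target of warfarin, had 323 in CR and 432 in AL, a difference of -0.42. The substrates of the carboxylase were spread around 0. Of the 7 vitamin K-dependent members, F2, F9 and F10 were below 0 and F7, Proc, Pros1 and Proz above, from -0.53 to 0.29, with a median of 0.16. By protein family, the 4 serpins Serpinc1, Serpind1, Serpinf2 and Serping1 all lay below 0, with a median of -0.75, and the 10 protease zymogens had a median of -0.09 and 0 members at least 2-fold lower. These families were formed after the values were seen.

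Other haemostasis genes, a list of 36 without the members, included 4 of 23 measured genes at least 2-fold lower (17.4%, against 2.79% of all measured genes) and 0 higher. The count was 3 with probe sets averaged, without _x_at, _s_at and _a_at probe sets (which leaves Serpina10 with none) and after loess. Pzp, a broad protease inhibitor of mouse plasma, had 756.5 in CR and 2194 in AL, a difference of -1.54. Serpina10, the protein Z-dependent inhibitor of factor X, had 687 in CR and 1389.5 in AL, a difference of -1.02. Its cofactor Proz stood at 0.29, so the partners lay on opposite sides of 0.

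S100a10, a surface receptor component for plasminogen, had 233 in CR and 582 in AL, a difference of -1.32, and its other measured probe set stood at -1.86. Tfpi2, a Kunitz-type inhibitor of plasmin, had 46.1 in CR and 93.2 in AL, a difference of -1.02. The list's median was -0.335, or -0.22 with genes below the limit in 1 pool set at the limit. Lman1 and Mcfd2, the cargo receptor pair that carries factors V and VIII out of the endoplasmic reticulum, stood at -0.62 and -0.48, although another Lman1 probe set stood at 0.31. The fibrinogen-like gene Fgl1 stood at -0.05, with 2520.0 in CR and 2613 in AL, unlike the fibrinogen chains in size.

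**Figure D4:**
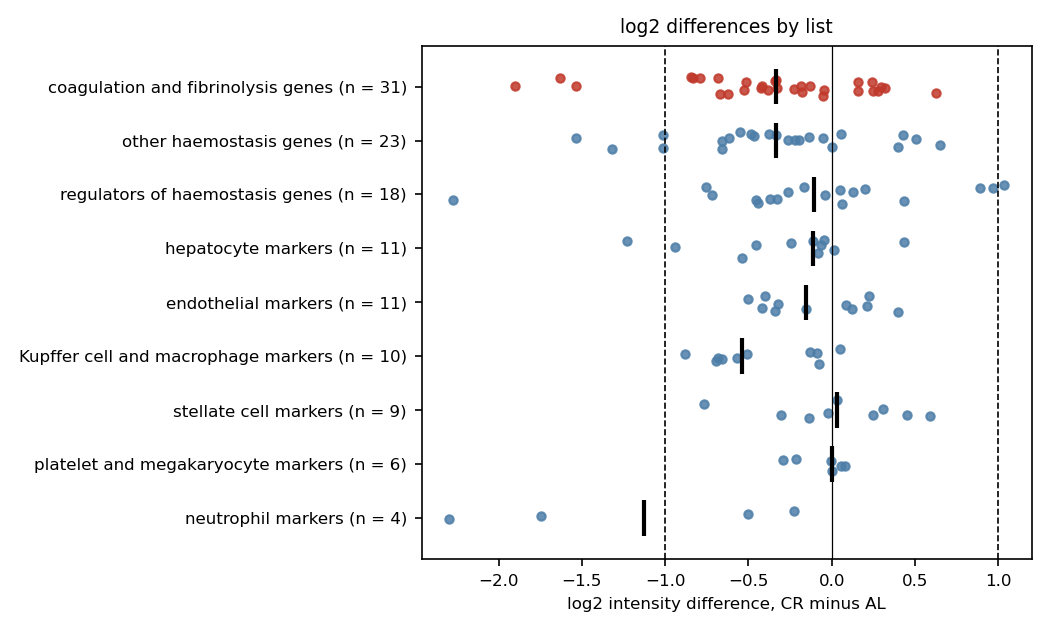
log2 intensity difference, CR minus AL, of each measured gene in the coagulation and fibrinolysis set and in the lists beside it (points, shifted at random up and down), with the list median as a bar and 2-fold as dashed lines. The set's median of -0.333 lies beside -0.335 for the other haemostasis genes. With genes below the limit in 1 pool set at the limit, these medians were -0.330 and -0.22. The Kupffer cell list lies lower at -0.54, and neutrophil markers, 4 genes, lie at -1.12.

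Transcription factors and cytokine receptors known to act on haemostasis genes did not share a direction. Of 18 measured, 10 lay below 0 and 8 above, with a median of -0.11. The interleukin 1 receptor gene Il1r1 had 37.2 in CR and 180 in AL, a difference of -2.27, and the nuclear receptor gene Ppara, which acts on fatty acid use, had 390.3 in CR and 190.5 in AL, a difference of 1.04, with all 3 of its probe sets past 2-fold. Il6ra, the interleukin 6 receptor, had 110.3 in CR and 56.5 in AL, a difference of 0.97, with another probe set at 0.08, and Cebpb stood at 0.89, with another at -0.38.

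Stat3, through which interleukin 6 acts on fibrinogen genes, had 154.5 in CR and 149.5 in AL, a difference of 0.05. Its other probe sets ran from -0.26 to -0.10. Hnf4a and Cebpa, hepatocyte factors, stood at -0.46 and -0.45, but the other Hnf4a probe sets ran from -0.25 to 0.07. Foxa1, Foxa2 and Foxa3 of the same list, with 1 probe set each, stood at -0.75, -0.72 and -0.33. Of the 18 measured genes of that list 8 lay above 0. The neutrophil markers S100a8 at 10.9 in CR and 53.4 in AL and S100a9 at 10.2 in CR and 34.1 in AL were at least 2-fold lower, with all 4 measured neutrophil markers below 0 and summed intensities of 45.7 in CR and 120 in AL. The red cell gene Alas2 had 7.43 in CR, close to the limit of 7.38, and 40.1 in AL, a difference of -2.43. Of 6 red cell markers 2 had a probe set, and the other, Hba-a1, lay below the limit in both pools. Whether blood content or leukocytes moved with the coagulation genes was not tested.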

How the data were processed

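Liver RNA of 1 CR pool and 1 AL pool of 3 mice each was hybridised to an Affymetrix mouse array of 45101 probe sets, and having 2 arrays limits the precision. The deposited intensity values came from RMA run by the authors, per the submitters' processing notes, and lie on a linear scale as the values show, with version and later scaling not given in the sources used here. Gene names came from the platform annotation, and all 48 member probe sets had an Entrez ID with the same symbol in RefSeq GRCm38.p6.

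Intensities were transformed to log2 and CR minus AL was taken. A gene was represented by its brightest single-symbol probe set, was measured if its higher value reached 7.38, and was counted as different at 2-fold, a rule of size with no test. All members are named, besides pathway genes past 2-fold or of largest difference in their list. A few others were chosen after their values were seen, such as Fgl1, Mcfd2, Stat3, Hnf4a, Cebpa, Foxa1, Foxa2, Foxa3, Ttr and Apob. Members and lists were chosen with earlier results of these data known. Promoter motifs were searched in 250 bases before each RefSeq start. Alternatives changed the probe set rule, intensity limit, array scaling and threshold. The steps were tested on simulated data. Versions were matplotlib 3.10.9, statsmodels 0.14.6, pandas 2.3.3, numpy 2.4.6 and Python 3.11.15.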

Additional observations from a re-analysis of the deposited data

How the results depend on the processing

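Fgb, Fgg and Serping1 were the 3 members at least 2-fold lower, with 0 higher, under the mean of all probe sets, without probe sets of the _x_at, _s_at and _a_at types, with no intensity limit, with the limit at the 75th percentile (20.98), after centring on medians and after a loess correction. Fgb, Fgg and Serping1 each had 1 probe set, brighter than both limits. The probe set rules and limits could therefore only change whether other members joined them, and centring moved every gene by 0.015. Under these settings and the bounds below, 29 of 31 members kept 1 sign wherever they were measured, the exceptions being F10 and Tfpi. Only 7 members had several measured probe sets, so for the others most of these settings left the value unchanged or nearly so. The spike scalings below are not in this count. At 1.5-fold, 9 members were lower and 1 higher, or 8 and 1 with Ggcx at its bound. Of the 23 other measured haemostasis genes, 7 were lower and 1 higher either way. Of all measured genes, 9.49% were lower and 6.76% higher, or 8.86% and 6.37% with genes below the limit in 1 pool set at the limit. Leaving out probe sets of these types, the median of natural anticoagulants was -0.18, and with probe sets averaged -0.10, against 0.16. With genes below the limit in 1 pool set at the limit, an alternative chosen after seeing the data, the median of vitamin K enzymes was -0.28, against -0.61. Scaling on the hybridisation spikes, whose median difference was 1.02 (cre alone 0.37), moved the median of all measured genes to -1.04 and -0.40, so differences hold relative to the typical gene. On all spikes 23 members and 18 other haemostasis genes were at least 2-fold lower, and medians were -1.35 for members, -2.65 for fibrinogen, -1.35 for clotting factors, -1.36 for the contact system, -0.86 for anticoagulants, -1.34 for fibrinolysis and -1.62 for vitamin K enzymes. On cre alone 8 members were lower, and these medians were -0.71, -2.002, -0.70, -0.72, -0.21, -0.70 and -0.98 in the same order. The shift is by construction the same for every gene. With a median of -1.04 on all spikes, most measured genes were also at least 2-fold lower. The counts of 23 and 18 are therefore not particular to these genes, and the share of all genes on cre alone is not given here. No paired analysis was possible because each diet had 1 array, and for the same reason no replicate could be left out. The table gave no detection calls, so dim members such as Vwf, F11, Thbd and Ggcx lie close to a limit set from the values. Among 4924 genes with several measured probe sets the SD of their differences had a median of 0.288, and among 7 such members one of 0.405, with both signs in 4.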

Other observations

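Members that are chromosomal neighbours in the RefSeq annotation were set side by side. F7, F10 and Proz follow each other on chromosome 8 with no protein-coding gene between them and had differences of 0.16, -0.05 and 0.29, from the brightest probe set of each gene. F11 and Klkb1, neighbours elsewhere on chromosome 8, stood at -0.38 and -0.34. Hrg and Kng1 on chromosome 16, separated by Kng2 alone, stood at -0.85 and 0.32, on opposite sides of 0, and no probe set carried the Kng2 symbol alone. The fibrinogen genes on chromosome 3 all lay below 0 but ran from -1.90 for Fgg through -0.62 for Fga, the middle gene, to -1.63 for Fgb. With 1 array per diet these are values of the pools and not tests of shared regulation.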
